A study of Triticum aestivum with 6 samples.

Results

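The genes described here are 9 wheat genes annotated as the small chain of ribulose bisphosphate carboxylase (Rubisco). They were taken from the 861 genes in the authors' deposited DESeq2 table by that description, where the described gene was also the gene named by the probe. The same description in a second deposited table of 52 genes gave 6 further genes, and no small chain gene was in both. Of all 52 genes in that table, 18 were in both. Leaf messenger RNA was sequenced from week-old seedlings (7 days after germination) of the winter wheat breeding line SE15. The ultrasound group had 3 samples from seeds exposed before germination to 30 kHz ultrasound (70 W, 5 minutes, 4 cm distance), and the control group had 3 samples from unexposed seeds. In both groups 100 seeds, whose water content was 13.6%, were left to germinate in darkness at 20 °C. Whether samples within a group were grown separately is not recorded, and the spread behind the authors' p-values may thus be technical.

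Rubisco is the chloroplast enzyme that joins carbon dioxide to ribulose bisphosphate, the entry step of the Calvin cycle. Its large chain, which holds the active site, is encoded in the chloroplast genome. The small chain is encoded by a nuclear gene family (rbcS), made in the cytosol and imported into the chloroplast, where both chains assemble into the holoenzyme. In leaves of flowering plants, rbcS messenger RNA is known to be low in darkness and to accumulate in light. Bread wheat is hexaploid, with 3 related subgenomes called A, B and D.

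Both deposited tables hold the authors' statistics for a single contrast, named K1 and US1 in the headers, and give no value per library. The level of each gene in each sample, the sequencing depth and the replicate spread are therefore unknown. It is also not stated which of the 3 libraries per group were used, or which of K1 and US1 was divided by the other. The sign is kept as deposited, and a positive log2 fold change means higher in ultrasound samples only if the numerator, K1 or US1, was the ultrasound group. Because being listed in this comparison is what chose the members, their values are a description and no test is attached to them. An implied standard error (SE) was derived for each gene, dividing the size of the log2 fold change by the normal quantile that the authors' p-value corresponds to, read as two-sided.

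All 9 small chain genes lay on the positive side of the authors' log2 fold change. The median was 1.79, a 3.46-fold difference, and the range was 1.56 to 2.77. The authors' shrunk values, which pull imprecise folds toward 0, had a median of 1.30 (2.46-fold). For background, the false discovery rates (FDR) in the deposited table imply 76618 tests, of which 861 (1.12%) were listed, 441 of them (0.576%) on the positive side. How many other small chain genes were among those tests is not analysed here, so no share of the family can be given. The members made up 2.04% of the positive genes. Against the positive genes as a whole, whose median log2 fold change was 1.90 and median shrunk value 1.27 in the authors' table, 4 of the 9 members lay above the unshrunk median and 7 above the shrunk median. In whole leaves, a change in the number of cells of a type and a change in RNA per cell cannot be told apart.

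The small chain genes formed 3 short clusters, with 3 listed genes each on chromosomes 2A, 2B and 2D, and all 9 lay on the minus strand. Positions are those of the deposited table, whose genome build is not given in the sources. Every probe overlapped an annotated gene, with no exon or UTR stated. The cluster on 2A ran from 30020633 to 30127338 (107 kb), that on 2B from 44190500 to 44361961 (171 kb) and that on 2D from 27853295 to 27902757 (49.5 kb). No other gene of the DESeq2 table lay within 10 gene numbers of any cluster, and the nearest was 3.14 Mb away on 2A, 6.87 Mb on 2B and 3.08 Mb on 2D. Along the whole of these chromosomes the authors' table was mixed in sign, with 20 of 39 listed genes positive on 2A, 17 of 40 on 2B and 23 of 50 on 2D, members included.

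On chromosome 2D, TraesCS2D02G065400 (27887631 to 27889099) had the largest log2 fold change of the small chain genes in the authors' table, at 2.77 (SE 0.41, shrunk 2.11, a 6.82-fold unshrunk difference). Its DESeq2 adjusted p of 6.30e-08 placed it 20 by p-value among the 861 listed genes. In the same cluster, TraesCS2D02G065600 (27901255 to 27902757) had the smallest fold of the members, 1.56 (SE 0.39, shrunk 1.22, DESeq2 adjusted p = 0.0135). The third gene of the cluster, TraesCS2D02G065100 (27853295 to 27854235), was at 1.73 (SE 0.47, shrunk 1.23) and had the weakest authors' adjusted p of the family from DESeq2, 0.0302. The table's own limit was an FDR of 0.05, and small chain genes beyond it are not analysed here. The 2D cluster thus held both ends of the range between 2 genes, TraesCS2D02G065400 and TraesCS2D02G065600, whose starts were 13.6 kb apart.

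On chromosome 2A, TraesCS2A02G067100 (30085405 to 30086867) had the largest fold of its cluster but also the poorest precision of the family. Its authors' log2 fold change was 2.55 with an SE of 0.65, and shrinkage brought it to 1.41 (DESeq2 adjusted p = 0.0156). TraesCS2A02G066700 (30020633 to 30021500) was at 2.18 (SE 0.45) in the deposited table and kept a shrunk value of 1.59, above that of TraesCS2A02G067100, with a DESeq2 adjusted p of 6.30e-04. The order of these 2A genes therefore differed between the authors' unshrunk and shrunk columns. TraesCS2A02G067300 (30125890 to 30127338) was the lowest on 2A in both columns, at 1.66 (SE 0.39) and 1.30 (DESeq2 adjusted p = 0.00497).

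On chromosome 2B, TraesCS2B02G078900 (44190500 to 44192003) led with an authors' log2 fold change of 2.32 (SE 0.46, shrunk 1.66, DESeq2 adjusted p = 3.26e-04). The other two were close to each other. TraesCS2B02G079200 (44285559 to 44286975) was at 1.79 (SE 0.47, shrunk 1.27, DESeq2 adjusted p = 0.0215), and TraesCS2B02G079500 (44360475 to 44361961) was at 1.69 (SE 0.41, shrunk 1.29, DESeq2 adjusted p = 0.00935) in the deposited table. By chromosome, the members' mean log2 fold change was 2.13 for 2A, 1.94 for 2B and 2.02 for 2D. These means lay closer together than the genes within any of the clusters.

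**Figure D1:**
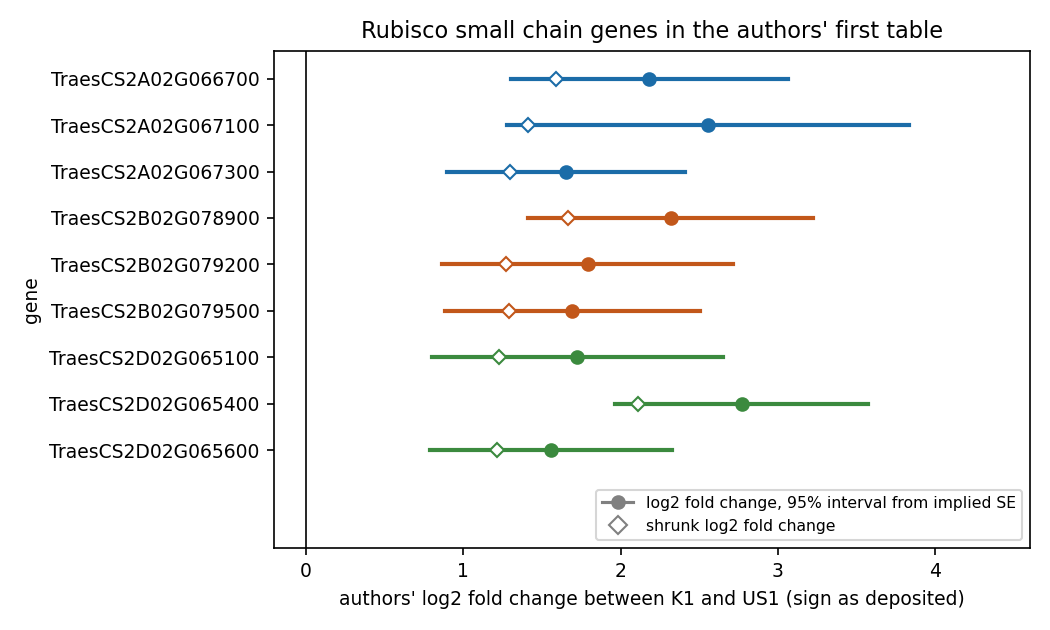
The horizontal axis gives the authors' log2 fold change between K1 and US1, with the sign as deposited, and each row is one small chain gene, coloured by chromosome (2A blue, 2B orange, 2D green). Filled circles are unshrunk folds with 95% intervals from the implied SE, and open diamonds are the authors' shrunk folds. All circles lie between 1.56 and 2.77, and the intervals of all 9 genes overlap.

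The spread among the members is given as a description, since the folds and p-values behind the SE also chose the genes. The 95% intervals built from the implied SE all covered the stretch from 1.96 to 2.33 on the log2 scale. Among the 36 pairs of members, the widest difference between the authors' log2 fold changes was 1.21 (SE 0.57, taking the errors as independent), between TraesCS2D02G065400 and TraesCS2D02G065600. The errors share the same libraries and possibly the same reads, so this SE is approximate. That pair was picked as the widest, and only 1 of the 36 pairs differed by more than 2 SE. Copies whose folds were small for their SE could not pass the FDR limit, so the narrow range does not show that the copies respond alike. That limit is not a limit on the fold itself, as the lowest positive log2 fold change listed was 0.972. In each of the 3 clusters the gene at the highest coordinate had the smallest unshrunk fold. Its distance below the other genes ran from 0.10 to 1.21 on the log2 scale, against SEs of the difference between 0.57 and 0.76. In the authors' shrunk column the gene at the highest coordinate was again the lowest on 2A and 2D but not on 2B.

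**Figure D2:**
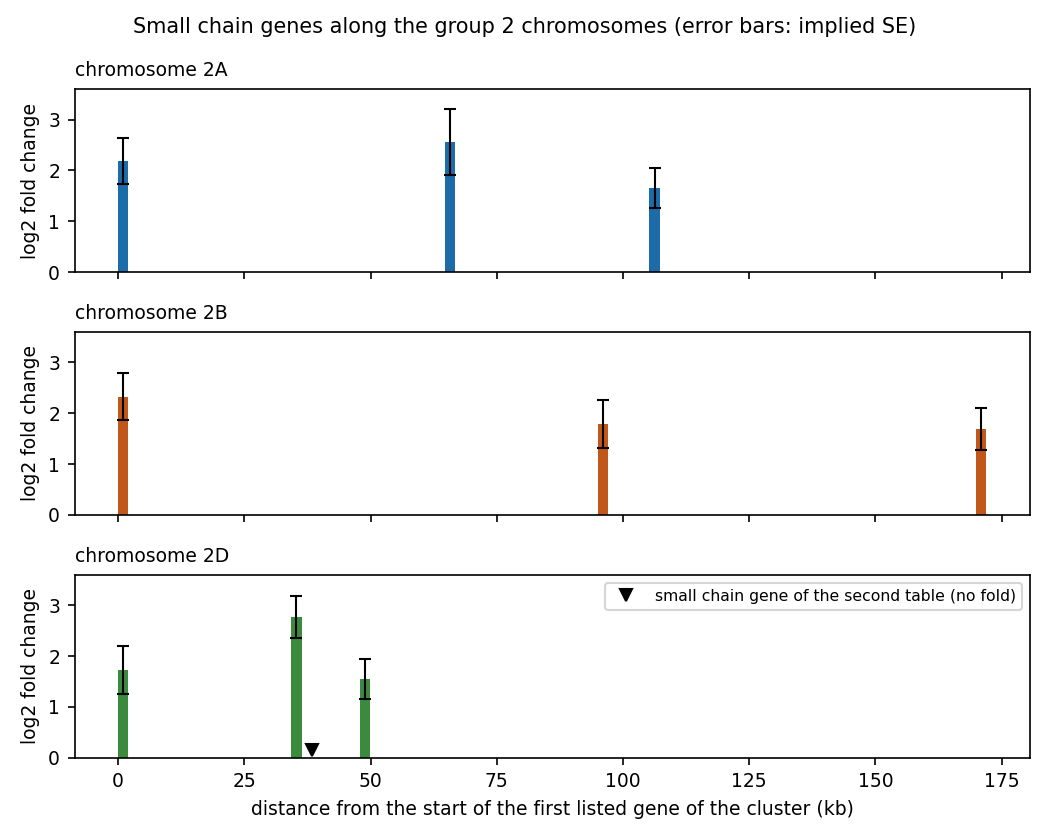
Each panel is one chromosome, the horizontal axis is the distance in kb from the start of the first listed small chain gene, and bar height is the authors' log2 fold change with the implied SE as error bar (bars are drawn wider than the genes). The triangle on 2D marks the small chain gene that only the second table lists. The last bar of every panel is the lowest, at 1.66 on 2A, 1.69 on 2B and 1.56 on 2D.

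TraesCS2A02G067300 and TraesCS2D02G065600 carried the same UniProt entry in their descriptions, and the other 7 members had an entry each, so the 9 members held 8 different entries. The log2 fold changes of that pair in the authors' table, 1.66 and 1.56, were the 2 smallest of the 9. Small chain copies can be nearly identical in sequence, and how the authors assigned reads that fit several copies is not given in the sources. The values of single copies are uncertain for that reason. Annotated probe lengths fell into a short class and a long class. TraesCS2A02G066700 and TraesCS2D02G065100 spanned 868 and 941 bp, and the other 7 spanned 1417 to 1504 bp. The short genes had authors' log2 fold changes of 2.18 and 1.73, inside the range of the long ones.

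The authors' second table, from a selection called ID, gives a Z-score of the difference in place of a fold, and the test behind it is not given in the sources. All 6 of its small chain genes had a negative Z-score, with a median of -4.41 and a range from -6.06 to -4.16. Across the 18 genes held by both deposited tables, every gene had opposite signs in the score and the fold. Negative scores thus matched positive folds wherever both were given. In this table the authors' FDR values imply 120099 tests, of which 52 (0.0433%) were listed, 49 of them (0.0408%) with a negative score. For the 6 small chain genes the deposited p-value equals a single tail of the normal distribution beyond the score. If both tails were counted, TraesCS5D02G169600 (authors' FDR 0.0424) and TraesCS5D02G169900 (authors' FDR 0.0366) would lie above an FDR of 0.05. Both tables come from the same groups, so they are not independent of each other.

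One of these 6 genes, TraesCS2D02G065500 (27891136 to 27892278, minus strand), sits inside the 2D cluster, directly between the members TraesCS2D02G065400 and TraesCS2D02G065600. It lies 2036 bp from the first and 8976 bp from the second, with consecutive gene numbers. Its Z-score in the authors' table was -4.46 (authors' FDR 0.0179). The gene was not among those of the DESeq2 table, although both flanking copies were, and its fold is not analysed here.

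The other 5 small chain genes of the second table lay on the group 5 chromosomes, where the DESeq2 table listed 0 small chain genes. All 5 shared a single UniProt entry, which none of the group 2 genes carried. TraesCS5A02G165700 (5A, 354314588 to 354315579, minus strand) had the most extreme score of the family in the authors' table, -6.06 (FDR 2.79e-05), the third largest in absolute size among its 52 genes. The genes on 5B and 5D were arranged alike, with a plus-strand gene at the lower coordinate facing a minus-strand gene. TraesCS5B02G162600 (299847320 to 299848476) and TraesCS5B02G162800 (300097036 to 300098231) lay 248559 bp apart, and their Z-scores in the deposited table were -4.53 and -4.36. TraesCS5D02G169600 (266085742 to 266086801) and TraesCS5D02G169900 (266325112 to 266326079) lay 238310 bp apart, and their Z-scores by the authors were -4.16 and -4.22. Apart from TraesCS5A02G165700, the small chain scores stayed between -4.53 and -4.16, close to the median of -4.50 over all negative genes of that table. Among the listed small chain genes, the split between the tables therefore followed chromosome group except for the single 2D gene. Of all 52 genes of the second table, only 18 were also in the DESeq2 table, and small chain copies in neither table are not analysed here. No test was made of the split by chromosome group, since members were chosen by being listed.

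**Figure D3:**
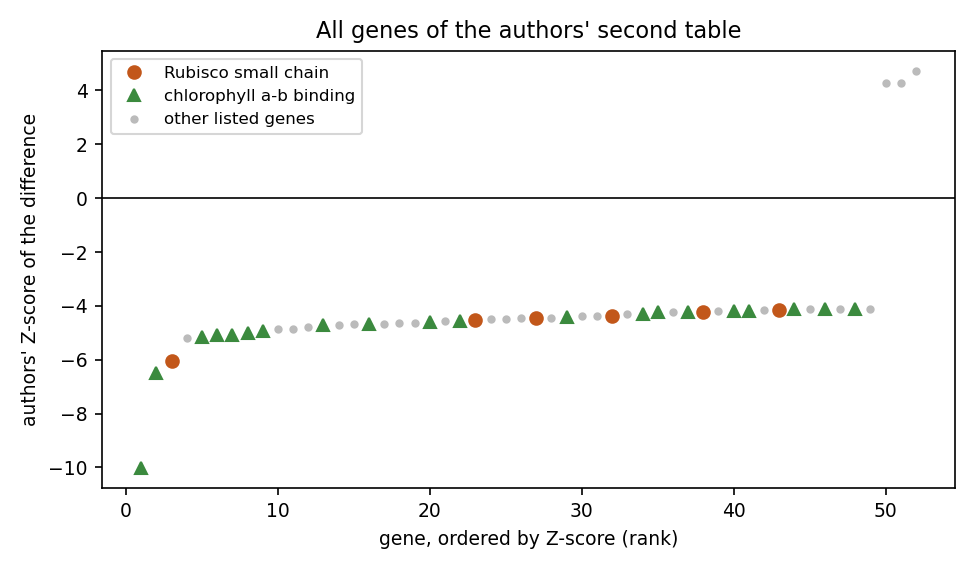
The vertical axis is the authors' Z-score of the difference and the horizontal axis ranks all 52 genes of the second table by that score. Small chain genes are orange circles, chlorophyll a-b binding genes green triangles and other genes grey points. One small chain gene, at -6.06, stands below the rest of its family, which lies between -4.53 and -4.16.

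Among other genes of carbon fixation, the only further match to the Calvin cycle list in the DESeq2 table was fructose-bisphosphate aldolase, which joins triose phosphates in the Calvin cycle and cleaves their product in glycolysis. The description does not say whether the encoded enzyme is the chloroplast or the cytosolic form. All 3 aldolase genes were positive in the authors' table. TraesCS5A02G108000 was at 1.99 (SE 0.39), TraesCS5D02G122700 at 1.80 (SE 0.33) and TraesCS5B02G115300 at 1.73 (SE 0.33). The median log2 fold change was 1.79 for the small chain genes and 1.80 for the aldolases, and the median shrunk value was 1.30 for the small chain genes and 1.50 for the aldolases. The remaining 11 of 13 Calvin cycle keywords, among them Rubisco activase, phosphoribulokinase and transketolase, matched 0 listed genes. Keywords for Rubisco assembly factors and for carbon dioxide supply and photorespiration matched 0 genes as well. Since 620 of the 861 listed genes (72.0%) carried no description, these zeros do not show that such genes were unchanged.

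The small chain genes had a lower median shrunk value than the antenna genes, the largest described photosynthesis group of the table. The 9 small chain genes had a median shrunk value of 1.30 and 5 had an authors' FDR under 0.01. The 37 listed chlorophyll a-b binding genes, whose proteins hold the light-harvesting pigments, had a median shrunk value of 1.72 and 35 had an FDR under 0.01 in the same table. Of all 441 positive genes of the table, 169 had an FDR under 0.01, which is 0.221% of the tests. The median implied SE was similar, 0.45 for the small chain genes and 0.52 for the antenna genes. This difference was not tested, because both groups were chosen from the same comparison. The wider list of thylakoid light reactions, which contains the antenna genes and those of the photosystems and plastocyanin, held 43 listed genes, all 43 positive in the authors' table. Keywords for seed proteins matched 0 genes of the DESeq2 table. With no description for 620 of its 861 genes (72.0%), this does not show that seed transcripts were absent from it. In the second table they matched 2 non-specific lipid-transfer proteins, whose name was on the list as a seed keyword. Such proteins are not storage proteins and are also made in leaves. Whether these 2 genes reflect seed tissue was not tested. The part of tissue composition in these values was not tested.

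**Figure D4:**
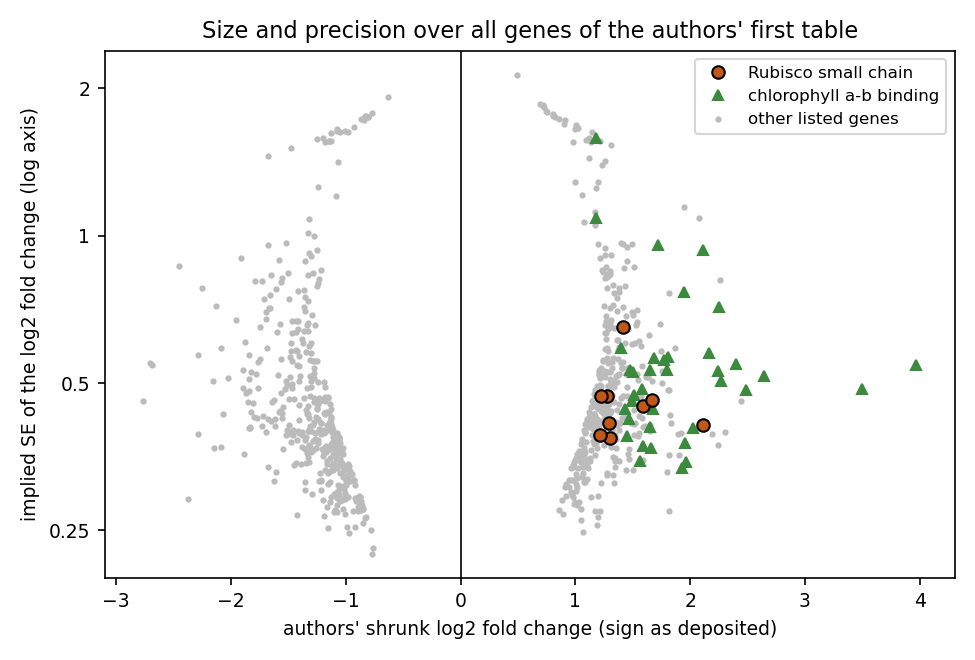
The horizontal axis is the authors' shrunk log2 fold change with the sign as deposited, and the vertical axis is the implied SE on a log scale. Points are the 861 genes of the DESeq2 table, with small chain genes as orange circles and chlorophyll a-b binding genes as green triangles. The small chain genes sit between 1.22 and 2.11 at SEs from 0.39 to 0.65, and the antenna genes reach further to the right, up to 3.97.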

How the data were processed

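Leaf messenger RNA of week-old wheat seedlings was sequenced in 3 ultrasound and 3 control samples, assigned by their titles. The extraction text names a kit for genomic DNA only, and libraries were made from poly-T selected RNA, per the labels' protocols. Per the submitters' processing notes, the tools were STAR 2.7.10a, Trim Galore 0.6.7, FastQC 0.11.9 and, by the authors with no version, DESeq2. Their roles and the genome build are not given in the sources. The deposited tables hold the authors' p-value, adjusted p-value (FDR) and log2 fold change per transcript-model probe, and in the second table a Z-score as the authors' score.

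No values per library were at hand, so the planned limma fit, or edgeR on counts, was not run, depth and precision per sample are unknown, and all values are the authors'. Python 3.11.15 with pandas 2.3.3 and SciPy 1.17.1 read the tables. The implied SE assumes a two-sided Wald test, and intervals of 95% use the normal quantile. The number of tests was recovered as the most frequent value of FDR times rank over p. Both steps were run on simulated data made with the same formulas and a complete list of genes. That run checks the computation only and cannot show that the authors' p-values come from such a test. The last FDR of the first table corresponds to position 867, so that table may be held here only in part. All small chain genes were named, with the pathway genes matched by keyword (all of a list up to 5, otherwise the 3 largest folds), except that the 3 largest of the thylakoid list are not described here. A gene was assigned a description only where it was its own.

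The members and lists were chosen with earlier results of these data known. The RefSeq gene table matched 0 of the 15 small chain identifiers and was not used, and no sequences are shown. Alternatives were a stricter FDR, other ways of counting copies, the shrunk fold, a weighted mean and leaving out members.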

Additional observations from a re-analysis of the deposited data

How the results depend on the processing

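Of the 9 genes listed, 5 had an authors' FDR under 0.01, beside 169 of all 441 positive genes. Counting each chromosome cluster once left 3, by construction. The count was 9 with any gene in the identifier column, with overlapping probes merged and with a wider wording, and 8 with one count per UniProt entry, an alternative chosen after seeing the data. The median log2 fold change of 1.79 became 1.30 in the authors' shrunk column, since shrinkage pulls every fold toward 0. It was 1.98 as a precision-weighted mean, 2.18 over the 5 genes with an FDR under 0.01, 1.79 with one value per cluster and 1.99 with one value per UniProt entry. Leaving out each of the 9 genes in turn gave medians from 1.76 to 1.99, and leaving out each of the 6 genes of the second table gave median Z-scores from -4.46 to -4.36. No paired analysis was possible because the tables hold no values per library. For the same reason leaving out replicates, other normalizations and filters on low counts were not run, and depth sets no stated limit.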
